A study of Homo sapiens with 9 samples.

Results

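The DYRK and HIPK kinases were followed as 9 of the 763 genes of a kinome-wide knockout screen, by taking every row of the count table whose gene was DYRK1A, DYRK1B, DYRK2, DYRK3, DYRK4, HIPK1, HIPK2, HIPK3 or HIPK4. Each was targeted by 4 single guide RNAs (sgRNAs), so that 36 sgRNAs of 3152 in the table belonged to them, and all 36 passed the filter on low reads. They were picked by gene name.

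The screen was done in RH4, a human rhabdomyosarcoma line that carries the PAX3::FOXO1 fusion, infected with the Brunello kinome library at 1000 cells per sgRNA. In this library Cas9 cuts the targeted gene, and the share of reads of an sgRNA tracks the share of cells that carry it. Baseline libraries come from cells harvested once puromycin selection ended (0.25 µg/ml for 72 h, begun 48 h after infection, by the labels). The sources conflict on how long selection lasted, with a longer time in the main text of the study, so the growth that a change against baseline spans is uncertain. After a 72 h pause without selection, the day 10 groups were kept in vehicle or in pralatrexate at 1.5 nM, a folate analogue that blocks dihydrofolate reductase. Every group therefore carried the fusion, the library and the selection, and the 3 groups had 3 libraries each. All came from 1 cell line. The replicates are described as technical in the study, so the p-values measure the spread between these libraries only.

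DYRK and HIPK kinases form a branch of the CMGC group, together with the cyclin-dependent and MAP kinases. They phosphorylate a tyrosine in their own activation loop while being made, and afterwards act on serine and threonine of other proteins. DYRK kinases are known for roles in cell cycle exit, protein turnover and the dissolution of condensates, and HIPK kinases for regulating transcription factors and the response to stress and DNA damage.

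The stretch that encodes the activation loop holds the codon of this tyrosine, and it is shown for the 5 kinases whose vehicle libraries all lay outside the baseline range. It runs from the codons of the DFG motif to those of the APE or SPE motif in the GENCODE transcript, 5′ to 3′ on the coding strand, with the codon of the autophosphorylated tyrosine in capitals.
DYRK1A: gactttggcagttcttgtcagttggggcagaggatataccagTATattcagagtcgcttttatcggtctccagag
DYRK1B: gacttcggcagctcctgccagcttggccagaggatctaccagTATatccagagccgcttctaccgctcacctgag
DYRK2: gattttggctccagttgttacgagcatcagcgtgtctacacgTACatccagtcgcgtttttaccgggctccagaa
DYRK4: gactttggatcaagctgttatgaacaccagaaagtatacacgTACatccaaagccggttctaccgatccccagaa
HIPK1: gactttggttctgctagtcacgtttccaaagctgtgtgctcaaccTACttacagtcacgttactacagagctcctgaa

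On GRCh38 the DYRK2 stretch lies in exon 3 of 3, at chr12:67658009-67658083 on the plus strand, and the codon is that of residue 382 of 601. The HIPK1 stretch begins in exon 2 and ends in exon 3, within chr1:113941392-113952775, and its codon is that of residue 352 of 1210. Over the 33 bases from the tyrosine codon onward, identity between pairs ran from 54.5% (DYRK1A with HIPK1) to 84.85% (DYRK2 with HIPK4, and DYRK3 with HIPK3). It did not follow the split into DYRK and HIPK, since DYRK1A shared 78.8% of bases with DYRK1B but 69.7% with DYRK3 and with HIPK4. Over whole coding sequences, 4 of the 36 pairs of these genes shared an identical stretch of 20 or more bases, the length of an sgRNA. These were HIPK1 with HIPK2 (23 bases), DYRK1B with HIPK2 (23 bases), HIPK1 with HIPK3 (21 bases) and DYRK2 with DYRK4 (20 bases). The sgRNA sequences were not used here, so it is not known whether any sgRNA falls in such a stretch, and positions given are those of genes and not of cut sites.

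Libraries held 2468136 to 4602712 reads, and the 36 sgRNAs together took 0.958 to 1.04% of them. Single sgRNAs of the 9 kinases had 150 to 2741 reads in a library. The common dispersion that edgeR fitted over all sgRNAs, beyond the Poisson error of reads, corresponds to a coefficient of variation of 13.2% within groups. Between baseline and vehicle the scale itself moved. With reads scaled on all sgRNAs (TMM), the median change over the 763 genes was 0.02 on the log2 scale, whereas the median over 99 non-targeting sgRNAs, which cut no gene, was 0.31 (SD 0.13). Changes below are on the first scale unless stated, and a value near 0 on it lies about 0.31 below the non-targeting sgRNAs.

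Vehicle libraries of day 10 were first set against baseline, to see which knockouts were lost or gained as RH4 cells grew without drug. None of the 9 kinases was called depleted or enriched when the ranks of its sgRNAs were aggregated (robust rank aggregation, FDR threshold 0.05), against 6.68% of all genes called depleted and 0.393% called enriched. Of the 9 kinases only DYRK2 had an unadjusted p under 0.05 by rank aggregation. The share of all genes at that cutoff is not given here, so this count has no background. Among single sgRNAs, 5 of 36 were lower and 1 was higher (edgeR, FDR threshold 0.05), where 12.8% and 6.26% of all sgRNAs were lower and higher. The median change of the 9 kinases was -0.09, beside 0.02 for all genes. The share of called sgRNAs among the 9 kinases was thus close to the background in the lower direction (5 of 36) and under it in the higher (1 of 36).

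**Figure D1:**
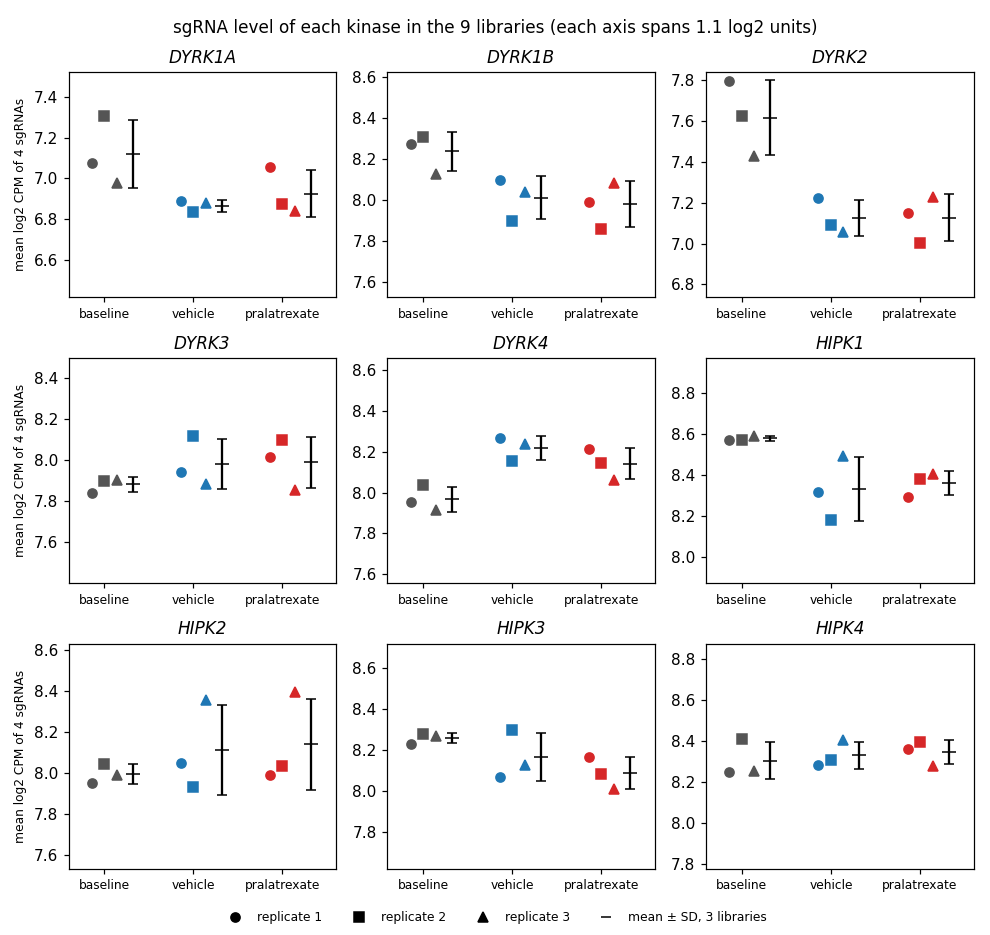
Each panel shows 1 kinase, with the mean log2 CPM of its 4 sgRNAs on the y axis (every axis spans the same range) in the 3 baseline, 3 vehicle and 3 pralatrexate libraries; marker shapes give the replicate number and bars the mean ± SD of 3 libraries. The vehicle libraries of DYRK1A, DYRK1B, DYRK2 and HIPK1 all sit below baseline and those of DYRK4 above it, and replicate 3 of HIPK2 is the highest in both day 10 groups.

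DYRK1A and DYRK1B are the class I members, closely related kinases that phosphorylate cyclin D1 and favour exit from the cell cycle. The level of DYRK1A, as mean log2 CPM of its sgRNAs, was 7.08, 7.30 and 6.98 in the baseline libraries, 6.89, 6.83 and 6.88 with vehicle, and 7.06, 6.88 and 6.84 with pralatrexate. All 3 vehicle libraries lay below the lowest baseline library, and the pralatrexate libraries overlapped both groups. The mean change over its 4 sgRNAs was -0.26 ± 0.46 (SD), with an FDR of 0.552 by rank aggregation. Its sgRNAs disagreed, since sgRNA 3 fell by 0.70 ± 0.18 (SE; edgeR FDR 0.00539) while sgRNA 4 had a value of 0.38 ± 0.26 in the other direction (FDR 0.342). CPM values (reads scaled to library size) of sgRNA 3 were 256, 235 and 236 at baseline and 144, 174 and 127 with vehicle, whereas those of sgRNA 4 were 72.0, 109 and 54.0 and then 113, 85.9 and 109. Without sgRNA 3 the mean change of DYRK1A was -0.11. Baseline replicate 2 was its highest library, and without that library the mean change was -0.16 with vehicle and, for pralatrexate against baseline, -0.08 in place of -0.19.

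The level of DYRK1B was 8.27, 8.31 and 8.13 at baseline, 8.10, 7.90 and 8.04 with vehicle, and 7.99, 7.86 and 8.08 with pralatrexate. Both day 10 groups lay below baseline, and the lowest baseline library was close to the highest day 10 libraries. All 4 sgRNAs had values under 0, with a mean of -0.23 ± 0.16 (SD) and an FDR of 0.771. Only sgRNA 4 was called among them, and it fell by 0.34 ± 0.11 (SE; edgeR FDR 0.0343), from 531 ± 25.0 to 420 ± 12.8 CPM (SD, n = 3 libraries each).

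DYRK2, DYRK3 and DYRK4 are the class II members. DYRK2 phosphorylates p53 and a subunit of the proteasome and is a scaffold of a ubiquitin ligase. Its level was 7.79, 7.62 and 7.43 at baseline, 7.22, 7.09 and 7.06 with vehicle, and 7.15, 7.00 and 7.23 with pralatrexate. Every day 10 library lay below every baseline library, and the baseline libraries themselves ranged over more than the day 10 libraries did. All 4 sgRNAs had values under 0, at -0.62, -0.48, -0.35 and -0.54, with a mean of -0.50 ± 0.11 (SD), a level of 0.708 of baseline. This was the lowest value of the 9 kinases and stood at rank 84 of 763 from the lowest.

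The tests differed on DYRK2 as a gene. Rank aggregation gave a p of 0.00825 and an FDR of 0.0925, over the threshold, while limma on the gene mean per library gave a difference of -0.49 (95% confidence interval -0.68 to -0.30) with an adjusted p of 0.000416. Singly, sgRNA 1 fell by 0.62 ± 0.18 (SE; edgeR FDR 0.0118) and sgRNA 4 by 0.54 ± 0.13 (FDR 0.0022), whereas sgRNA 2 (FDR 0.199) and sgRNA 3 (FDR 0.294) did not pass. CPM values of sgRNA 4 were 446, 370 and 413 at baseline and 279, 286 and 282 with vehicle. Those of sgRNA 2 were 145, 128 and 79.3 at baseline and 72.2, 98.7 and 81.4 with vehicle, so that baseline replicate 3 was already at the vehicle level. Without baseline replicate 3 the mean change of DYRK2 was -0.58 and rank aggregation called it (FDR 0.0457), and without baseline replicate 1 it was -0.40 (FDR 0.219).

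DYRK3 dissolves stress granules and other condensates, and DYRK4 is a less studied kinase first found in testis. The level of DYRK3 ran from 7.84 to 7.90 at baseline and from 7.88 to 8.12 with vehicle, and the groups overlapped. Its mean change was 0.10 ± 0.07 (SD over 4 sgRNAs), the smallest spread between sgRNAs of the 9 kinases, and none of them was called. It rested on vehicle replicate 2, without which the mean change was 0.03. The level of DYRK4 was 7.95, 8.03 and 7.91 at baseline, 8.27, 8.15 and 8.24 with vehicle, and 8.21, 8.14 and 8.06 with pralatrexate. All day 10 libraries lay above baseline on this scale. Its mean change was 0.25 ± 0.31 (SD; rank aggregation FDR 0.813), which was carried by sgRNA 2. That sgRNA rose by 0.70 ± 0.17 (SE; edgeR FDR 0.00315), from 147 ± 18.9 to 240 ± 10.0 CPM (SD, n = 3 each), and without it the mean change was 0.10. Against the non-targeting sgRNAs the mean change of DYRK4 was -0.06, so its direction depended on the scale.

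**Figure D2:**
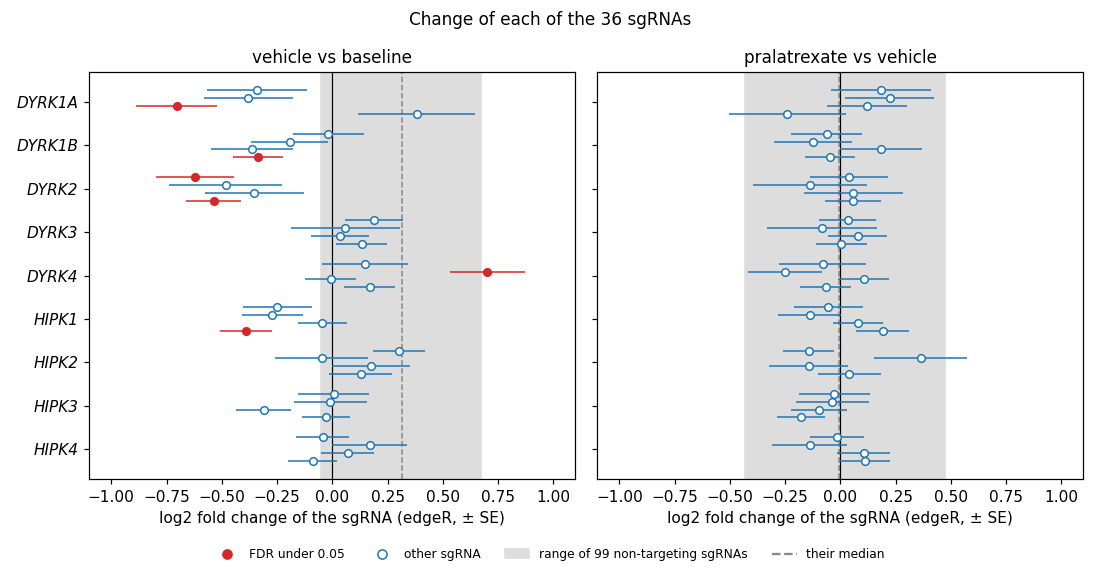
Each point is 1 of 36 sgRNAs with its log2 fold change (x axis, edgeR, bars ± SE) in vehicle against baseline (left) and pralatrexate against vehicle (right), with filled red points at an FDR under 0.05, the range of 99 non-targeting sgRNAs in grey and their median dashed. On the left 6 sgRNAs were called and all sgRNAs of DYRK2 lie below the grey range, and on the right none was called and all lie inside it.

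HIPK1 and HIPK2 are nuclear kinases that bind homeodomain proteins and act on p53 and its partners. The level of HIPK1 was 8.57, 8.57 and 8.59 at baseline, 8.32, 8.18 and 8.49 with vehicle, and 8.29, 8.38 and 8.41 with pralatrexate. All day 10 libraries lay below the narrow baseline range. Its 4 sgRNAs had values under 0 with a mean of -0.24 ± 0.14 (SD; rank aggregation FDR 0.517), and sgRNA 4 was called, at a fall of 0.39 ± 0.12 (SE; edgeR FDR 0.0195).

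The level of HIPK2 was 7.95, 8.04 and 7.99 at baseline, 8.05, 7.93 and 8.35 with vehicle, and 7.99, 8.04 and 8.39 with pralatrexate. Replicate 3 was the highest library of both day 10 groups, and no such difference was present at baseline. It was seen in sgRNA 2, with 155, 146 and 265 CPM with vehicle and 190, 204 and 334 with pralatrexate, and in sgRNA 3, with 310, 224 and 398 and then 257, 218 and 367. In sgRNA 4 the vehicle libraries ran from 249 to 258 CPM. The mean change of HIPK2 was 0.14 ± 0.15 (SD over 4 sgRNAs; FDR 1) and was -0.0003 without vehicle replicate 3 and 0.22 without vehicle replicate 2, and none of its sgRNAs was called.

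**Figure D3:**
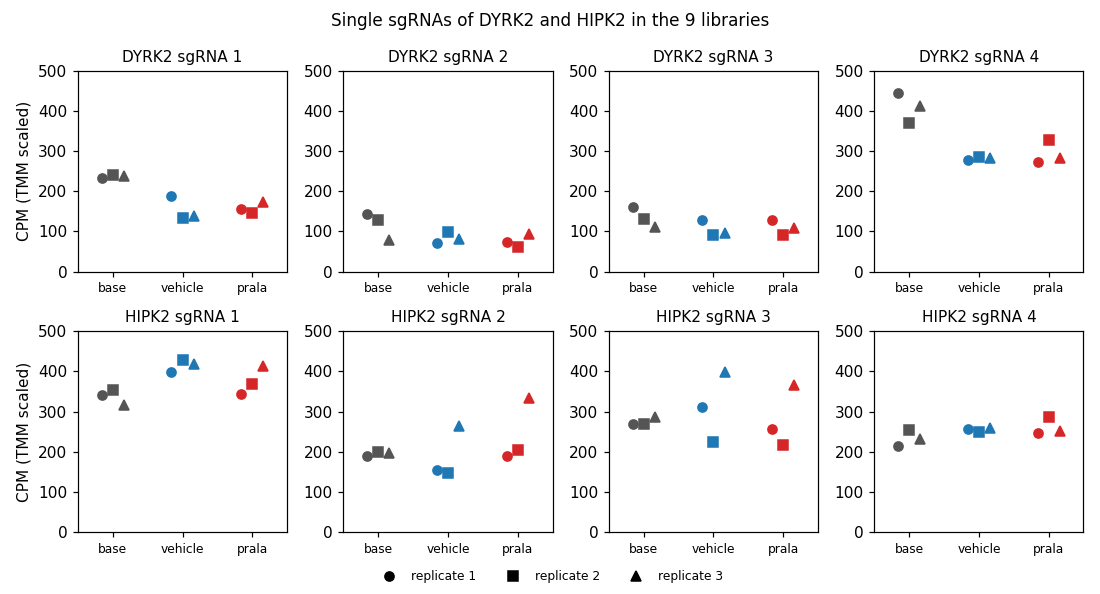
CPM after TMM scaling (y axis, from 0) of the 4 sgRNAs of DYRK2 (top) and of HIPK2 (bottom) in baseline, vehicle and pralatrexate libraries, with marker shapes for the replicate number. DYRK2 sgRNA 1 and sgRNA 4 are lower in all 6 day 10 libraries than in baseline, and HIPK2 sgRNA 2 and sgRNA 3 are highest in replicate 3 of both day 10 groups.

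HIPK3 is the third nuclear member, and HIPK4, which lacks the homeodomain-interacting region, is known for shaping the sperm head. The level of HIPK3 ran from 8.23 to 8.28 at baseline and from 8.07 to 8.30 with vehicle, with a mean change of -0.09 ± 0.15 (SD over sgRNAs), which was -0.04 without vehicle replicate 1 and -0.16 without vehicle replicate 2. That of HIPK4 ran from 8.25 to 8.41 at baseline and from 8.28 to 8.40 with vehicle, with a mean change of 0.03 ± 0.12, whose sign turned when baseline replicate 1 (-0.002) or vehicle replicate 3 (-0.01) was left out. Both overlapped baseline and no sgRNA of either was called.

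Relative to the median of the non-targeting sgRNAs, all 9 kinases had values under 0, from -0.81 for DYRK2 and -0.57 for DYRK1A to -0.17 for HIPK2 and -0.06 for DYRK4, so the values above 0 for DYRK3, DYRK4, HIPK2 and HIPK4 turned sign on that scale. Of all 763 genes, 98.4% lay under that median, so this count is that of the scale and says nothing particular to the 9 kinases. In the count of libraries, 4 of 9 kinases had all vehicle libraries below baseline, against 24.4% of all genes, and 1 had all above, against 19.5%. With 3 libraries against 3, an exact permutation test cannot give a p below 0.1. By sgRNAs, 3 of 9 kinases (DYRK1B, DYRK2 and HIPK1) had all 4 sgRNAs under 0, against 16.9% of all genes.

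When gene means per library were tested with limma, which uses the spread between libraries and not that between sgRNAs, DYRK2, HIPK1 (adjusted p 0.0232), DYRK1A (0.0340) and DYRK1B (0.0452) fell and DYRK4 rose (0.0112), a direction that turned on the non-targeting scale, where its difference was -0.07 and not called. In that test 19.8% of all genes were lower and 9.04% higher. Of the 5, DYRK2 passed without each library in turn (highest adjusted p 0.00427). HIPK1 lost its call without any baseline replicate or without vehicle replicate 1 or 2 (highest 0.110), DYRK1A in each case except without baseline replicate 3 (highest 0.2005), DYRK1B without baseline replicate 1 or 2 or vehicle replicate 2 or 3 (highest 0.173), and DYRK4 without baseline replicate 3 (0.0585). DYRK3, HIPK2, HIPK3 and HIPK4 did not pass, with intervals of -0.07 to 0.27, -0.11 to 0.35, -0.25 to 0.06 and -0.12 to 0.18.

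The comparison of pralatrexate with vehicle asked which knockouts changed the response to the antifolate. None of the 9 kinases was called by rank aggregation, where 0.524% of all genes were depleted and 0% enriched, and none had an unadjusted p under 0.05 in either direction. Likewise 0 of 36 sgRNAs were called by edgeR, where 0.0318% of all sgRNAs were called lower and 0% higher. At an unadjusted edgeR p under 0.05 the count was also 0 of 36. The shares of all genes and of all sgRNAs at the unadjusted cutoff are not given here, so those counts have no background. limma called none of the 9, with 0.524% of all genes lower and 0.131% higher. In no kinase did the libraries separate, against 3.41% of genes below and 3.67% above.

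The changes with pralatrexate were small in both families. They ran from -0.08 for HIPK3 to 0.07 for DYRK1A, with a median of 0.01 for the 9 kinases and for all genes. The non-targeting median was -0.004, so the scale did not differ between the day 10 groups. DYRK2 had a value of 0.004 ± 0.09 (SD over sgRNAs), and the limma interval of its difference was -0.19 to 0.19. The levels of DYRK2 with pralatrexate spanned those with vehicle. HIPK3 was the kinase whose 4 sgRNAs all had values under 0, with a mean of -0.08 ± 0.07 (SD; limma interval -0.23 to 0.08). Of all genes, 6.95% had 4 of 4 sgRNAs under 0.

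The day 10 libraries deviated together by replicate number, so the differences within same-numbered libraries were also read. For HIPK2 these were -0.06, 0.11 and 0.04, although its levels differed more between replicates than those of any other of the 9 kinases with either treatment. Its limma interval was -0.20 to 0.26 without the pairing and -0.14 to 0.20 with the replicate number as a block. Leaving out vehicle replicate 3 (0.17) or pralatrexate replicate 3 (-0.12) broke such a pair and moved its mean change from 0.03.

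DYRK4 was the kinase lower in all 3 pairs, with differences of -0.05, -0.01 and -0.17 on the log2 scale, where 12.6% of all genes were lower in all pairs and 13.5% higher. Its interval with the block was -0.25 to 0.09, and limma with the block called 0 of the 9 kinases. In the blocked fit limma pooled the variance over all genes, so every kinase had the same standard error, 0.0858. The largest change of a single sgRNA was 0.36 ± 0.21 (SE; edgeR FDR 0.911), in HIPK2 sgRNA 2. A change of the size seen in DYRK2 between baseline and vehicle lies outside the interval of every kinase in this comparison.

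**Figure D4:**
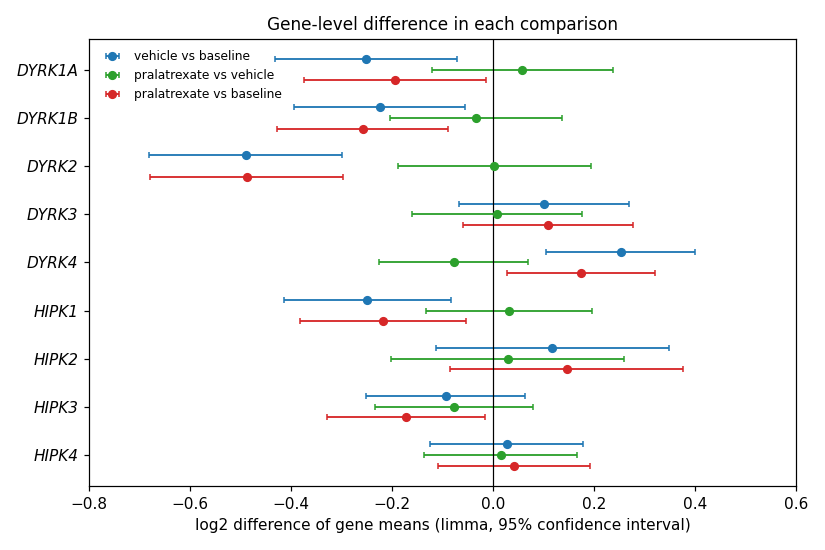
Differences of gene means per library on the log2 scale (x axis) for the 9 kinases in the 3 comparisons, as limma estimates with 95% confidence intervals. DYRK2 lies furthest below 0 against baseline in both day 10 groups, and every interval of pralatrexate against vehicle spans 0.

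Pralatrexate libraries were also set against baseline, which shares its libraries with both comparisons above and is no independent evidence. Rank aggregation called 0 of the 9 kinases, beside 7.21% of genes depleted and 0.262% enriched. DYRK2 had a value of -0.49 ± 0.15 (SD over sgRNAs; p 0.0123, FDR 0.125), next to -0.50 with vehicle. In this comparison 6 sgRNAs fell and 0 rose (edgeR), against 13.1% and 5.98% of all sgRNAs. DYRK1A sgRNA 3, DYRK1B sgRNA 4, DYRK2 sgRNA 1 and DYRK2 sgRNA 4 were called in both day 10 groups. HIPK1 sgRNA 2 (-0.41 ± 0.14, SE) and HIPK3 sgRNA 3 (-0.41 ± 0.13) were called with pralatrexate, but the difference between the day 10 groups was not called for either. The limma test called DYRK2, DYRK1B and HIPK1 lower and none higher, with 19.9% and 9.83% of all genes called. DYRK2 kept that call without each library in turn (highest adjusted p 0.00446), DYRK1B lost it without baseline replicate 1 or 2 or pralatrexate replicate 2 (highest 0.104), and HIPK1 lost it without any of the 6 libraries (0.0547 to 0.133). By libraries, DYRK1B, DYRK2, HIPK1 and HIPK3 lay below baseline (25.6% of genes did) and DYRK4 above it (20.3%).

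Related kinases that share substrates or pathways with the 9 were read in the same way, in lists chosen with earlier results of these data known. Of all genes, 6.68% were depleted and 0.393% enriched between baseline and vehicle. Of 17 other CMGC kinases (CLK, SRPK, CDKL and further members), 1 was depleted and 0 enriched between baseline and vehicle, with a list median of 0.05. The depleted gene was PRPF4B, a kinase of the spliceosome, at -1.36 ± 0.16 (SD over 4 sgRNAs; FDR 0.00425). The next list held 8 genes of kinases that act on DYRK-primed sites or shared substrates (GSK3 and casein kinases, with the regulatory subunit CSNK2B). Of these genes, 0 were depleted and 2 enriched, with a list median of 0.08. These were GSK3B, which phosphorylates sites that DYRK kinases prime, at 0.50 ± 0.21 (FDR 0.0360), and GSK3A at 0.43 ± 0.24 (FDR 0.0210). Both lay above the non-targeting median too, by 0.18 and 0.12. The values of this list furthest from 0 were lower ones that rank aggregation did not call. They were CSNK1A1 at -0.86 ± 0.52 (FDR 0.0684) and CSNK2B at -0.84 ± 1.19 (FDR 0.267).

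Of 7 kinases of proliferation and quiescence, 2 were depleted and 0 enriched, beside 6.68% and 0.393% of all genes. CDK6, a partner of the D-type cyclins, was at -1.45 ± 0.65 (FDR 0.00333) and CDK2 at -0.74 ± 0.22 (FDR 0.00735). Of 5 DNA damage kinases, 2 were depleted, namely CHEK1 at -2.20 ± 1.29 (FDR 0.00345) and ATR, which activates it, at -0.85 ± 0.53 (FDR 0.0326). Of 8 stress kinases that act with HIPK, 0 were called, and the values furthest from 0 were those of MAP3K5 (0.31) and MAPK9 (0.26). Relative to the non-targeting median MAP3K5 was at -0.0005 and MAPK9 at -0.05. The list medians were 0.07, -0.44 and 0.09 in that order. The value of DYRK2 was thus smaller in size than each of the depleted genes of these lists.

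With pralatrexate against vehicle, 0 genes of the 5 lists were called, where 0.524% of all genes were depleted and 0% enriched. The values furthest from 0 were those of CLK2 (-0.17) and ICK (0.17) among CMGC kinases, CSNK1A1 (0.19) and CSNK2B (0.15) among primed or shared substrate kinases, and CDK2 (0.21) and STK4 (0.12) among kinases of proliferation. Among DNA damage kinases they were CHEK2 (0.12) and CHEK1 (-0.06), and among stress kinases MAPK9 (-0.08) and MAPK8 (-0.06). Against baseline, pralatrexate libraries gave calls for PRPF4B (-1.42), GSK3B (0.58), CDK2 (-0.52), CDK6 (-1.45) and CHEK1 (-2.26), and GSK3A (0.39, FDR 0.118) and ATR (-0.80, FDR 0.164) did not pass.

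The genes whose levels ran most like those of DYRK2 over the 9 libraries were WEE1, which restrains entry into mitosis (Pearson r 0.963), CDC42BPG, a kinase bound by CDC42 (0.963), and CDK9, which releases paused RNA polymerase (0.942). These correlations are descriptions over libraries that fall into day 10 and baseline, and a gene that differs between those groups will correlate with DYRK2. From baseline to vehicle WEE1 was at -0.94 (FDR 0.101), CDC42BPG at -0.40 (FDR 0.151) and CDK9 at -2.89 (FDR 0.00735). From vehicle to pralatrexate the values were -0.08, 0.01 and 1.03. Rank aggregation called 0% of all genes enriched there, and the 1.03 of CDK9 starts from a vehicle level already at -2.89 against baseline.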

How the data were processed

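The authors deposited raw read counts per sgRNA for 9 libraries. The submitters' processing notes name Bowtie 1.0.0, and the build of the sgRNA design is not given in the sources used here. MAGeCK gene tables that the authors deposited, with fold changes and p-values of their comparisons, were not used. Counts had no molecular identifiers, so PCR copies count as reads.

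sgRNAs with a mean under 30 reads were removed (7 sgRNAs). The other 3145 were fitted with edgeR 4.0.16 in R 4.3.3 (quasi-likelihood, TMM, all 9 libraries, group as the only term). In place of MAGeCK, all sgRNAs were ranked by one-sided p, those under 0.25 were aggregated per gene, and the gene p came from the analytic null distribution of the score, adjusted by Benjamini and Hochberg over 763 genes in each direction (FDR). A gene's change is the mean over its sgRNAs. Levels are log2 CPM (prior count 2). Gene means were also tested with limma 3.58.1 and summed reads with edgeR, and DESeq2 1.42.0 was an alternative. Scripts were tested on simulated data.

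The chi-square per degree of freedom between libraries of a group was 10.7 to 25.8, so none was the same library sequenced again. This does not tell separate cultures from separate preparations of the same culture. Deviations of same-numbered vehicle and pralatrexate libraries correlated (r 0.169, 0.196 and 0.185), those of baseline did not reach 0.1 with either, so the numbers pair the day 10 libraries, from the data and not from the labels. Gene positions and sequences are from GENCODE 44 (GRCh38). The named genes were the 9 kinases, in each list the genes called or, if none, the 2 furthest from 0, and the 3 genes most like the kinase of smallest p. The genes and lists were chosen with earlier results of these data known.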

Additional observations from a re-analysis of the deposited data

How the results depend on the processing

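No call for the 9 kinases was obtained in pralatrexate against vehicle under the 17 alternatives, and 0 of 36 sgRNAs were called in each one that tests sgRNAs. Against baseline the count depended on the test, and so did the share of all genes called. Between baseline and vehicle 0 kinases were called by rank aggregation, 5 by limma on gene means (28.8% of all genes called), 5 by edgeR on summed reads (35.4%) and, in an alternative added after the values were seen, 7 by limma scaled on non-targeting sgRNAs (83.1%), and leaving out each library gave 0 to 1 by rank aggregation. Between baseline and pralatrexate the counts were 0, 3 (29.8%), 4 (38.9%) and 7 (77.7%), and leaving out each library gave 0 throughout by rank aggregation. The 7 are near the background of that fit. The first test ranks single sgRNAs against all sgRNAs and combines the ranks per gene, whereas the others test a single value per gene and library. Agreement in sign was not enough for a call by the first, since all 4 sgRNAs of DYRK2 were under 0 with vehicle (FDR 0.0925). Leaving out each library in the limma fit was also added after the values were seen. With vehicle it gave 2 to 3 kinases, and each library lowered the count. In those fits 17.4 to 19.3% of all genes were lower and 5.11 to 9.04% higher. With pralatrexate it gave 1 to 3 kinases, and the count was 1 without baseline replicate 1, baseline replicate 2 or pralatrexate replicate 2. In those fits 16.9 to 19.0% of all genes were lower and 5.64 to 8.26% higher. In the limma fit scaled on non-targeting sgRNAs, DYRK3 turned to -0.23 and HIPK4 to -0.30 with vehicle, and to -0.20 and -0.27 with pralatrexate, each called lower, since that scale moves all values against baseline down by about 0.31.

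Of single sgRNAs, 6 of 36 were called in each comparison with baseline. Scaled on non-targeting sgRNAs, 19 were called with vehicle (44.6% of all sgRNAs) and 16 with pralatrexate (42%). Leaving out each library gave 3 to 5 with vehicle, the lowest without vehicle replicate 2, and 2 to 5 with pralatrexate, where the count was 2 without any baseline replicate or pralatrexate replicate 3, 3 without pralatrexate replicate 2 and 5 without pralatrexate replicate 1. With the replicate block, DYRK2 was at -0.50 between baseline and vehicle (FDR 0.0923), and no call for a kinase changed. The lowest depth among the 36 sgRNAs was 150 reads in a library. Since PCR copies count as reads, the error of counting molecules, unlike the Poisson error of reads, was not separated from the spread between libraries.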
